A study of Homo sapiens with 2 samples.

Results

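The 10 genes described here encode proteins that build the mitotic spindle or divide the cell after it: AURKA, TPX2, NUSAP1, HMMR, PRC1, ANLN, DLGAP5, TACC3, CKAP5 and ASPM. They were chosen by symbol, for the known roles of their proteins, and all 10 were among the 17912 gene entries analysed. NUSAP1 was included with the overlap of its exons with another gene already known. RNA came from U2OS, an established human osteosarcoma cell line, growing asynchronously in 0.3 µM aphidicolin, an inhibitor of replicative DNA polymerases, for 18 h. Both libraries belong to this 1 group, so the study design offers a comparison between replicates and between genes, and no library of untreated cells was analysed here. The labels leave unsaid whether the replicates were grown apart, so a difference between them can be purely technical. The p-values set the difference between the libraries against counting error only. The unit is RPKM, in which reads are scaled by the kilobases of exon and by library size. The library totals recovered from the values were 13227805 reads in replicate 1 and 13020149 in replicate 2.

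A spindle forms when microtubules grow from centrosomes, around chromosomes and from the sides of existing microtubules, and are bundled and held at their ends by binding proteins. Near chromosomes the GTPase Ran frees spindle assembly factors from importins, and after chromosomes separate, overlapping microtubules of the midzone position the ring of actin and myosin that cleaves the cell. Many genes of this machinery are transcribed mostly in G2 and mitosis, through MuvB complexes with B-MYB and FOXM1, and their promoters often carry a cell cycle genes homology region, the CHR (TTTGAA or TTCGAA), and CCAAT boxes. In RNA from a whole culture, fewer cells in those phases and less RNA per cell cannot be told apart.

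Promoter windows from RefSeq (GRCh38.p14), 250 bases before to 50 after each annotated start, were matched for 8 of the 10 genes, namely all but AURKA and TPX2. The 4 sequences below are the 90 bases before the start. They belong to a midzone gene (PRC1), 2 genes with TTTGAA close to the start (HMMR and ANLN) and the member with the lowest level (NUSAP1). In these stretches PRC1 and HMMR hold both TTTGAA and CCAAT, ANLN holds TTTGAA only and NUSAP1 holds CCAAT only. Capitals mark TTTGAA and CCAAT on either strand, so TTCAAA and ATTGG are also capitals, and where matches touch or overlap the capitals run together. The windows lie at chr15:90994536-90994625 on the minus strand (PRC1), chr5:163460542-163460631 on the plus strand (HMMR), chr7:36389772-36389861 on the plus strand (ANLN) and chr15:41332791-41332880 on the plus strand (NUSAP1).
PRC1: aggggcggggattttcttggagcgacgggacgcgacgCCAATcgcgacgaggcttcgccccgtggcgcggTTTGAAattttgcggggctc
HMMR: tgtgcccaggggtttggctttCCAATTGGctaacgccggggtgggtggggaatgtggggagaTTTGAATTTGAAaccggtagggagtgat
ANLN: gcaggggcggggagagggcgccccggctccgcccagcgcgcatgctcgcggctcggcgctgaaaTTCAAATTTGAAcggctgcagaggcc
NUSAP1: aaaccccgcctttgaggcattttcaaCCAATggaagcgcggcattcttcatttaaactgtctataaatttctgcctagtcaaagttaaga

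The letters TTTGAA occurred on either strand in 7 of the 8 windows, all but that of TACC3, compared with 15.2% of all 35116 windows and 10.3% of the 13757 windows of genes with at least 1 RPKM. In positions counted from the start, where the base before the start is -1 and the start is 1, the sense copies of PRC1 and ANLN both began at -20. HMMR held a sense pair at -28 and -22, and ANLN held a touching antisense copy at -26. NUSAP1 had its copy after the start, at position 14, outside the bases shown, and DLGAP5 had sense copies at -138 and 4 and an antisense copy at -109. In CKAP5 (-73 and 18) and ASPM (-113) every copy was antisense. CCAAT occurred in 6 of the 8 windows, all but those of ANLN and TACC3. It was in 34.6% of all windows and 34.5% of those of genes with at least 1 RPKM. The CCAAT of PRC1 began at -53, and HMMR held 5 copies on the 2 strands together. These 6 windows held TTTGAA too, and both were in 5.90% of all windows and 4.09% of those of genes with at least 1 RPKM. A sense TTTGAA between -30 and 20, a stretch chosen after the positions had been seen, was found in 5 of the 8 windows (PRC1, HMMR, ANLN, NUSAP1 and DLGAP5). Of all windows 1.37% held it there, and of those of genes with at least 1 RPKM 1.07%. The other CHR form, TTCGAA, was in none of the 8 windows, in 1.45% of all and in 1.70% of those of genes with at least 1 RPKM. TATAAA was in 2 of 8 (NUSAP1 at -29 and ASPM at -220), and the 2 shares were 11.5% and 6.06%. The TACC3 window was the only one of the 8 whose first 20 bases after the start were not found in a GENCODE 29 transcript of the gene, so its lack of matches holds for this RefSeq start only. These matches describe letters, and binding at them was not analysed here.

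At the level of RNA, 9 of the 10 genes had at least 1 RPKM in both libraries, compared with 66.7% of all entries. Their median was 34.1 RPKM in replicate 1 and 33.9 RPKM in replicate 2, and the median over all entries was 3.55 and 3.52 RPKM. The levels fell into 2 ranges: 8 genes lay between 16.1 and 152 RPKM, and PRC1 and NUSAP1 lay at 1.88 and 0.180 RPKM. RPKM is scaled by the exonic length of the authors' annotation, which can exceed that of the transcripts present, so the order of genes below holds for those lengths. When the longest coding transcript in GENCODE 29 gave the length, a calculation added after the levels had been seen, TPX2, ANLN and DLGAP5 were still the 3 highest and ASPM, PRC1 and NUSAP1 the 3 lowest.

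**Figure D1:**
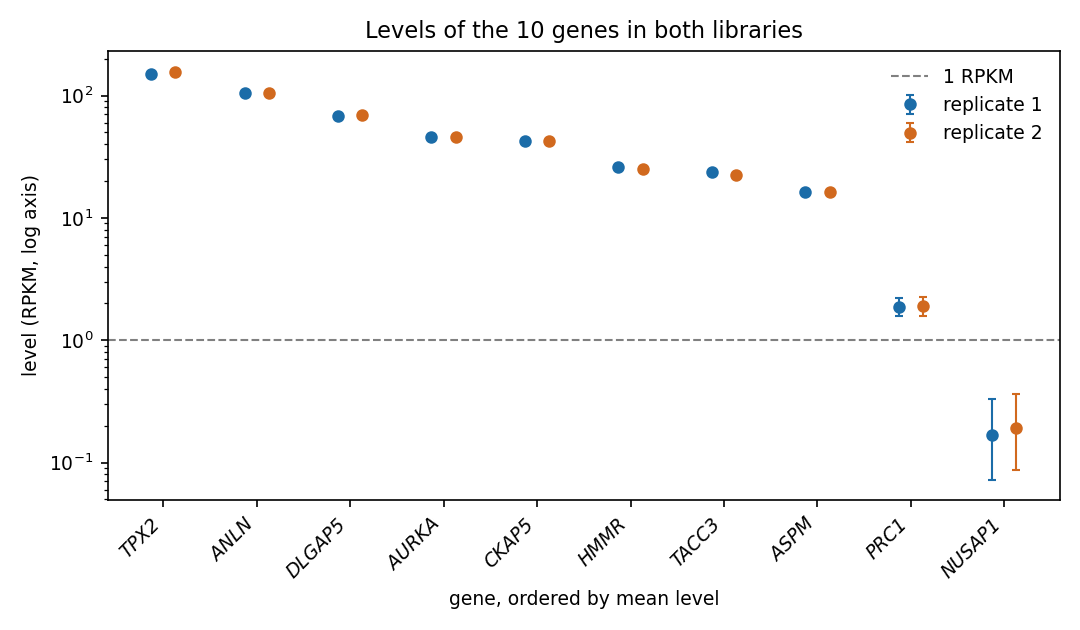
Level of each of the 10 genes in RPKM (log axis), with 1 point per library and 95% Poisson intervals of the recovered reads, which cover counting error only. TPX2 is highest at 150 and 154 RPKM, ASPM is the lowest of the upper 8 genes at 16.1 RPKM in both libraries, and PRC1 and NUSAP1 stand below them.

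Among the factors that act with the Aurora A kinase, TPX2 had the highest level of the 10. TPX2 (ENSG00000088325, chr20:31739271-31801805, plus strand, GRCh38) binds microtubules once Ran has released it from importin, and it activates Aurora A and brings it to the spindle. Its level was 150 RPKM in replicate 1 and 154 RPKM in replicate 2, with a mean of 152 ± 3.26 RPKM (SD, n = 2), from 7147 and 7251 reads. It ranked at position 134 of the 17912 entries, between ODC1, an enzyme of polyamine synthesis at 154 ± 3.55 RPKM, and MARCKSL1, a membrane and actin binding protein at 151 ± 8.84 RPKM. AURKA (ENSG00000087586, chr20:56369389-56392337, minus strand), the gene of Aurora A itself, is needed for centrosome maturation and bipolar spindles. It was at 46.0 and 46.1 RPKM, from 1782 and 1757 reads, and ranked at position 834. Thus by deposited RPKM the activator's RNA was 3.26 times that of the kinase in replicate 1 and 3.35 times in replicate 2. On the longest coding transcripts TPX2 would be at 152 and AURKA at 60.0 RPKM, so the size of this ratio depends on the lengths. HMMR (ENSG00000072571, chr5:163460203-163491945, plus strand), a hyaluronan receptor that also binds microtubules and helps place TPX2 at spindle poles, was at 26.1 and 25.0 RPKM, from 1359 and 1279 reads. DLGAP5 (ENSG00000126787, chr14:55148112-55191678, minus strand), also called HURP, is a Ran-regulated protein that stabilises the microtubules attached to kinetochores. It was at 68.2 and 68.8 RPKM, from 3247 and 3223 reads, below only TPX2 and ANLN among the 10.

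TACC3 and CKAP5 work together, since Aurora A phosphorylates TACC3, which then binds clathrin and CKAP5 on the bundles of kinetochore microtubules. CKAP5 (ENSG00000175216, chr11:46743048-46846308, minus strand), also known as chTOG, is a polymerase that adds tubulin to microtubule ends, and it was at 42.1 and 42.8 RPKM, from 4759 and 4753 reads. TACC3 (ENSG00000013810, chr4:1721490-1745176, plus strand) was at 23.7 and 22.5 RPKM. By deposited RPKM TACC3 had the lowest level of the 3 components: CKAP5 was 1.78 and 1.90 times and CLTC, the clathrin heavy chain at 81.8 ± 1.87 RPKM, 3.40 and 3.69 times as high in replicates 1 and 2. The reads behind the TACC3 value could not be fixed, since 2566 and 2404 reads on an exonic length of 8202 bases and 1283 and 1202 reads on 4101 bases give the same RPKM. The exonic length of TACC3 in GENCODE 29 is 6528 bases, and with it the level would be 1.26 or 0.628 times the deposited one. On its longest coding transcript of 2781 bases TACC3 would be at 68.1 or 34.0 RPKM and CKAP5, on its own, at 50.9 RPKM, so the order of this pair depends on the length and the reads. ASPM (ENSG00000066279, chr1:197084128-197146694, minus strand), which gathers microtubule minus ends at the poles and is known for mutations in microcephaly, was at 16.1 RPKM in both libraries, from 2321 and 2288 reads. It has the longest exonic sequence of the 10, 10888 bases as recovered from the values, and was the lowest of the 8 genes in the upper range.

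By listed RPKM, the factors of the midzone and of cytokinesis lay at opposite ends of the order. The values of PRC1 and NUSAP1 change with the exonic bases counted, as described below with their overlaps. Those of NUSAP1 stayed at 3.60 RPKM or below in every such calculation, and the part of the overlap was not tested. ANLN (ENSG00000011426, chr7:36389806-36453791, plus strand) encodes anillin, a scaffold that links actin, myosin, septins and RhoA in the cleavage furrow. Its level was 106 RPKM in replicate 1 and 105 RPKM in replicate 2, from 8372 and 8211 reads, and was second among the 10. It exceeded both components of centralspindlin, the complex that recruits the activator of RhoA to the midzone: KIF23, at 47.2 ± 2.23 RPKM, reached 0.462 and 0.433 of it, and RACGAP1, at 53.9 ± 0.958 RPKM, reached 0.517 and 0.506. PRC1 (ENSG00000198901, chr15:90966038-90995629, minus strand) crosslinks antiparallel microtubules of the midzone and recruits the kinesin KIF4A to their overlap. It was at 1.86 and 1.89 RPKM, from 136 reads in each library, with 95% Poisson intervals of 1.56 to 2.20 and 1.59 to 2.24 RPKM. KIF4A was at 32.4 and 31.2 RPKM, which was 17.4 and 16.5 times the value listed for PRC1. NUSAP1 (ENSG00000137804, chr15:41332694-41381050, plus strand), a nucleolar and spindle protein that bundles microtubules near chromosomes, was listed at 0.168 and 0.192 RPKM. These values rest on 8 and 9 reads, and their intervals reached from 0.0724 to 0.330 and from 0.0876 to 0.364 RPKM. In rank by RPKM NUSAP1 was at position 15233, next to TMEM130 and PAX5, both at 0.180 RPKM, where PAX5 is a B cell transcription factor.

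All 9 pairs of neighbours in the order were apart, in that both libraries of the upper gene exceeded both libraries of the lower one. The closest pairs were AURKA over CKAP5, at a ratio of mean levels of 1.08, and HMMR over TACC3, at 1.11 (an order that turns around with the longest coding transcripts, where HMMR is at 32.4 RPKM), and the widest were ASPM over PRC1, at 8.59, and PRC1 over NUSAP1, at 10.4. A different order arose when reads were scaled by library total only (CPM): ANLN came before TPX2, and CKAP5, whose exons are long, came before DLGAP5, while PRC1 and NUSAP1 remained the last 2. Besides the RNA present, the annotation used for the deposited table sets which reads and which length enter each value, and it is not given in the sources used here.

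PRC1 and NUSAP1 were also the only members whose exons share same-strand bases with another gene in the GENCODE 29 annotation (GRCh38). The overlap of NUSAP1 was known when it was chosen as a member. In NUSAP1, 1787 exonic bases, 62.2% of its exonic length, are also exons of AC087721.2 (chr15:41284013-41380743), a gene model whose transcript reads through from the neighbouring locus. The coding transcripts of NUSAP1 share between 72.3% and 88.8% of their bases with it, and 1088 exonic bases of the gene are free of any other gene. The exonic length of NUSAP1 recovered from the values is 3608 bases, against 2875 in GENCODE 29. The exons counted for the deposited value therefore differ from those described here. In PRC1, 3181 bases, 57.6% of its exonic length, are also exons of AC068831.7 (chr15:90966190-91022566), whose 2 transcripts read through from VPS33B. The 3 coding transcripts of PRC1 share 65.4%, 89.5% and 94.2% of their bases with that model. Neither readthrough model is listed in the deposited table. On the opposite strand PRC1 shares 406 bases (7.35%) with PRC1-AS1, an antisense gene listed at 0.252 ± 0.00799 RPKM. The bases of PRC1 free of any other gene number 2299.

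**Figure D2:**
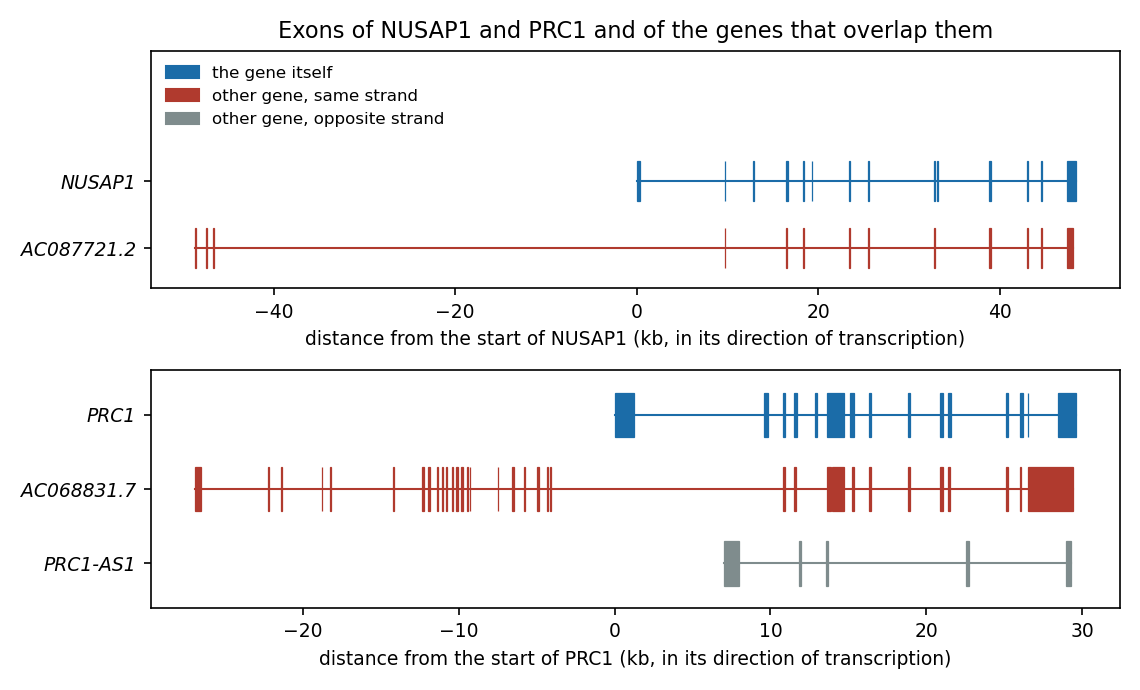
Exons in GENCODE 29 (boxes) of NUSAP1, PRC1 and the genes that overlap them, by distance in kilobases from the start of NUSAP1 or PRC1 in its direction of transcription, with the gene in blue, same-strand genes in red and the opposite strand in grey. Both readthrough models begin before the gene and share most of its later exons, 62.2% of the exonic bases of NUSAP1 and 57.6% of those of PRC1.

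The remaining overlaps among the 10 genes are small and lie on the opposite strand. HMMR shares 113 bases (2.87%) with HMMR-AS1, which is not listed, and ANLN shares 78 bases (1.30%) with KIAA0895, listed at 2.96 ± 0.0790 RPKM. The other 6 members share no exonic base with another gene. Processed pseudogenes of AURKA (AURKAP1 and AURKAP2) and of DLGAP5 (DLGAP5P1) are annotated elsewhere and not listed, and whether reads were shared with these copies was not tested.

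Low levels in entries with a large same-strand overlap were not limited to these 2 genes. Of the 13040 protein-coding entries with no same-strand shared base, 73.5% had at least 1 RPKM in both libraries and the median was 5.10 RPKM. Of the 191 entries that share over 50% of their exonic bases, 51, or 26.7%, had at least 1 RPKM and the median was 0.395 RPKM. In 108 of those 191, PRC1 and NUSAP1 included, readthrough models that are not in the table cover over 50% of the exonic bases, with a median of 0.347 RPKM and 26.9% at 1 RPKM or above. The other 83 had a median of 0.427 RPKM, with 26.5% at that level. At smaller overlaps, 78.8% of the 1325 entries sharing up to 10% and 63.8% of the 809 sharing 10% to 50% had at least 1 RPKM. The loci that the same readthrough models join to PRC1 and NUSAP1 gave a further pair of values. VPS33B, a vesicle sorting gene, shares 52.1% of its exonic bases with AC068831.7 and was at 1.19 ± 0.107 RPKM, and OIP5-AS1, a noncoding RNA that shares 2.58% with AC087721.2, was at 11.2 ± 0.0610 RPKM. Setting all reads against the bases that no other gene covers, again added after the levels had been seen, gave 0.596 RPKM for NUSAP1 and 4.51 RPKM for PRC1. With the bases of single coding transcripts that are not shared on the same strand, 119 to 1413 bases in PRC1 and 180 to 667 in NUSAP1, the same reads gave 7.33 to 87.1 RPKM for PRC1 and 0.972 to 3.60 RPKM for NUSAP1. Both calculations assume that no read came from a shared base, and the second also that none came from another transcript, which was not tested. Under these assumptions the values for single transcripts of PRC1 span that of ASPM, and those of NUSAP1 stay below it. The place of PRC1 in the order thus depends on the bases counted and on these assumptions. How the counting treated reads in shared exons is not given in the sources used here, so the values of PRC1 and NUSAP1 are the levels listed for the genes, and the part of the overlap in them was not tested.

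**Figure D3:**
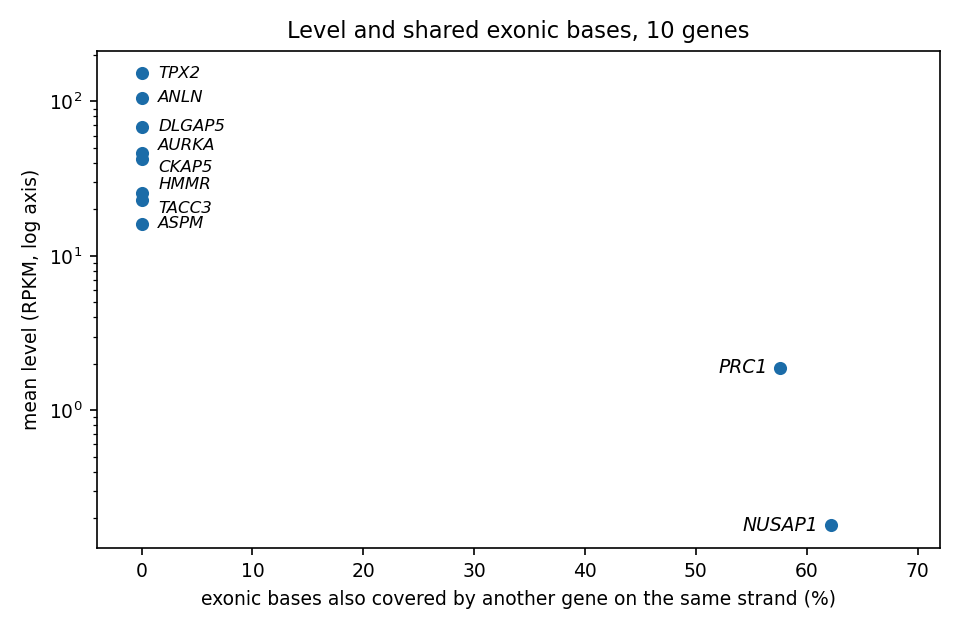
Mean level in RPKM (log axis) of each of the 10 genes against the percent of its exonic bases that another gene covers on the same strand, with 1 point per gene. The 8 genes with 0% lie at 16.1 RPKM or above, and PRC1 (57.6%) and NUSAP1 (62.2%) lie at 1.88 and 0.180 RPKM. The overlap of NUSAP1 was known when the genes were chosen.

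Between the 2 libraries none of the 10 genes passed an exact binomial test of the recovered reads at an adjusted p under 0.05 (Benjamini-Hochberg over 15773 entries), where 1.26% of the entries did. This test compares these libraries, with no difference in condition between them. TPX2 alone had an unadjusted p under 0.05: its log2 ratio of replicate 2 to replicate 1 was 0.05 (95% interval 0.00 to 0.10), with an exact binomial p of 0.0329 and an adjusted p of 0.414. HMMR was lower in replicate 2, with a log2 ratio of -0.06 (-0.17 to 0.05), as was TACC3, with -0.06 (-0.14 to 0.02), and neither interval lay clear of 0. For ANLN, from the largest number of reads, the log2 ratio was 0.00 and its interval reached from -0.04 to 0.05. For NUSAP1 the interval reached from -1.35 to 1.78, so a difference of that size was not detectable at this depth. The SD of the 8 upper genes was between 0.106% and 3.49% of the mean, and that of NUSAP1 was 9.43%.

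**Figure D4:**
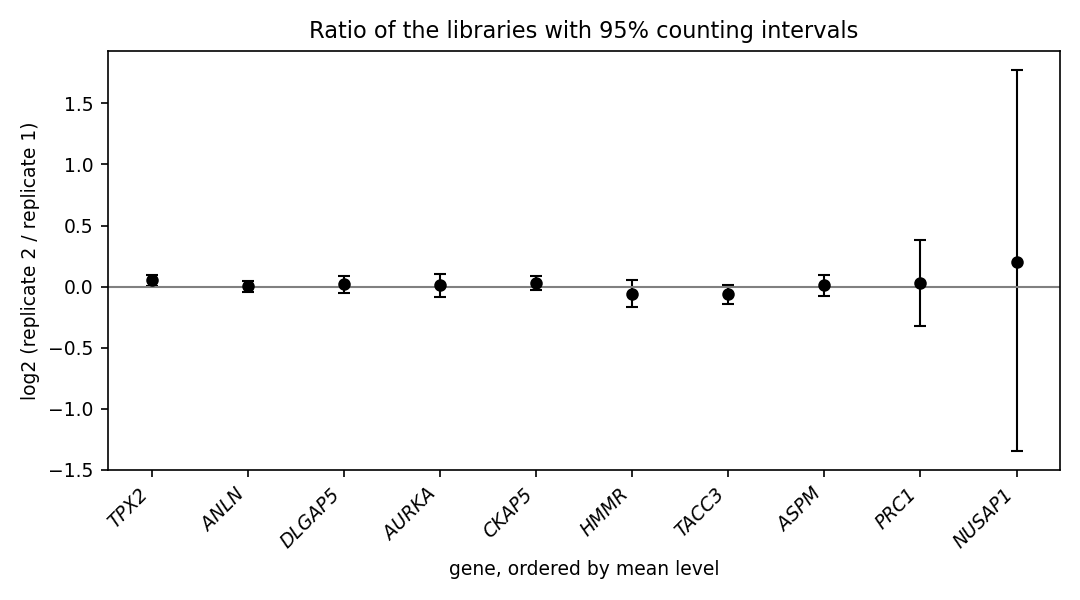
Log2 ratio of replicate 2 to replicate 1 for each of the 10 genes, after scaling of the libraries, with 95% intervals that cover counting error only. The intervals of ANLN and TPX2 are narrow, that of PRC1 reaches from -0.32 to 0.38, and that of NUSAP1 spans -1.35 to 1.78.

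The other genes of spindle assembly and cytokinesis were described with 8 lists of textbook factors, 135 genes in all without the 10 members. Of these, 134 were listed and 132 had at least 1 RPKM in both libraries (98.5%, against 66.7% of all entries), and their median of 19.7 RPKM was below the 34.0 RPKM of the 10 genes. In the test between libraries 6 of the 134 were called, 3 higher in each library, where 1.26% of all entries were called. TPX2 was above the highest gene in 4 of the 8 lists, those of nucleation, microtubule binding, kinesins and the passenger complex.

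In the list of kinases and regulators of mitotic entry, 16 of 17 genes were listed (FBXO43 was not), all with at least 1 RPKM, at a median of 27.2 RPKM. It was led by CCNB1, the cyclin of mitotic entry, at 157 ± 3.97 RPKM, by CDC20, an activator of the anaphase-promoting complex, at 98.1 ± 1.66 RPKM, and by CDK1, the kinase that pairs with cyclin B, at 68.8 ± 4.29 RPKM. CDK1 was 1 of 2 genes of this list called between libraries, both higher in replicate 1, at 71.8 and 65.8 RPKM with an adjusted p of 0.0436 (exact binomial test). All 10 genes of Ran and importin control had at least 1 RPKM, at a median of 47.8 RPKM, the highest of the 8 lists. KPNA2, an importin alpha that holds TPX2 inactive, led at 181 ± 3.27 RPKM and lay above TPX2. KPNB1, importin beta, was at 95.8 ± 4.38 RPKM, and RAN at 83.5 ± 2.27 RPKM. In this list 2 genes were called, both higher in replicate 2, among them KPNB1 with an adjusted p of 0.000352 (exact binomial test).

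The lowest lists were those of nucleation and of transcription factors. Of 21 genes of the gamma-tubulin ring and augmin, 20 had at least 1 RPKM, at a median of 9.46 RPKM, led by TUBG1, gamma-tubulin, at 51.1 ± 0.348 RPKM, MZT2B at 20.4 ± 0.929 RPKM and HAUS5 at 19.4 ± 0.0684 RPKM. The exception was the augmin subunit HAUS7 at 0.533 and 0.658 RPKM, whose exons share 35.6% of their bases with TREX2 on the same strand. HAUS4, another augmin subunit, shares 34.1% on the same strand and was at 8.81 RPKM. It is named here after its values were seen, and the part of overlap in either level was not tested. Of 14 transcription factors of late cell cycle genes, 13 had at least 1 RPKM in both libraries, at a median of 13.4 RPKM. MYBL2, which encodes B-MYB, was at 244 ± 3.64 RPKM, above all 10 spindle genes, FOXM1 was at 95.2 ± 3.31 RPKM, and TFDP1, the partner of E2F factors, was at 53.8 ± 0.967 RPKM. LIN37, a MuvB subunit, was at 0.992 and 1.61 RPKM, and shares 26.7% of its exonic bases with another gene on the same strand and 54.0% on either strand. MZT2B shares 44.9% on either strand and none on the same one. No gene of either list was called between the libraries.

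Microtubule binding and spindle pole factors (27 of 27 with at least 1 RPKM, median 20.1 RPKM) were led by MAPRE1, which tracks growing ends, at 107 ± 0.0676 RPKM, STMN1, which sequesters tubulin, at 106 ± 0.732 RPKM, and CLTC. MAPRE1 was above ANLN in both libraries, while the values of STMN1 and ANLN overlapped. Kinesins of the spindle and midzone (13 of 13, median 31.8 RPKM) were led by KIFC1, a minus-end motor, at 64.7 ± 0.592 RPKM, KIF2C, a depolymerase, at 63.8 ± 0.271 RPKM, and KIF23. Genes of the chromosomal passenger complex (4 of 4, median 39.2 RPKM) lay close together, with BIRC5 at 53.1 ± 0.564, CDCA8 at 44.7 ± 1.13 and AURKB at 33.6 ± 1.17 RPKM. AURKB, the kinase of that complex, was below its relative AURKA in both libraries. None of the genes in these 3 lists was called between libraries. The cytokinesis list (31 of 31, median 20.7 RPKM) was led by genes with roles outside division too, RHOA at 308 ± 7.59 RPKM and the myosin heavy chain MYH9 at 125 ± 0.586 RPKM. The myosin light chain MYL9, at 81.1 ± 5.51 RPKM, was higher in replicate 2 with an adjusted p of 0.0117 (exact binomial test), 1 of 2 genes called in this list. The lowest mean levels among the kinesins and the cytokinesis genes were 10.1 and 4.39 RPKM, both above the value listed for PRC1.

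**Figure D5:**
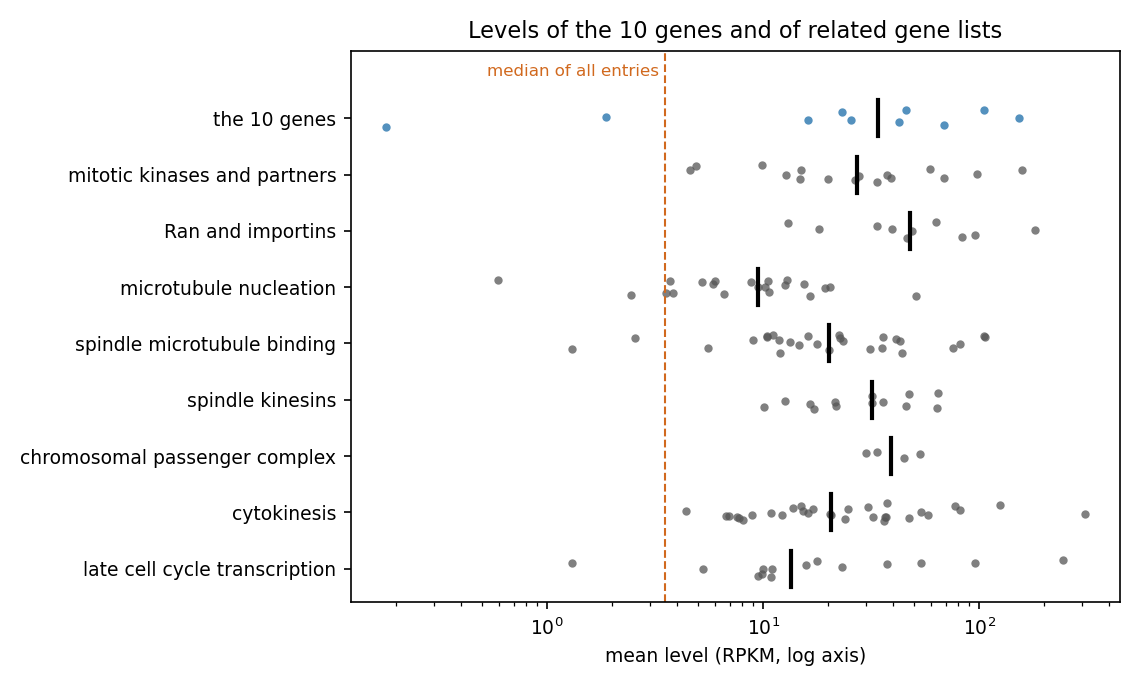
Mean level in RPKM (log axis) of each gene in the 8 lists and of the 10 genes, with a black bar at the median of each list and, as a dashed line, the median of all entries, 3.53 RPKM. The median of every list lies above that line, the lowest being that of the nucleation genes at 9.46 RPKM.

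The label of the line was set against markers of bone and of other cell types. Of 11 osteoblast and mesenchymal markers 9 were listed and 8 had at least 1 RPKM. The highest were SPARC at 280 ± 3.67, VIM at 249 ± 0.226, COL1A1 at 209 ± 0.879 and FN1 at 139 ± 10.6 RPKM. RUNX2 was at 8.55 ± 0.181 and ALPL at 2.23 ± 0.423 RPKM. BGLAP, osteocalcin, was at 0.277 RPKM, from 3 and 4 reads, and SP7 and IBSP were not listed. The exons of BGLAP share 33.4% of their bases with another gene on the same strand. The summed level of these markers was 920 and 941 RPKM in replicates 1 and 2. Haematopoietic markers (0 of 2 listed genes at 1 RPKM, summed 0.244 and 0.185 RPKM) and endothelial markers (0 of 3, summed 0.860 and 0.739 RPKM) were low. Of 4 listed epithelial markers 3 had at least 1 RPKM, summing to 77.1 and 73.9 RPKM over the list. Most of this came from the keratins KRT18, at 42.6 ± 1.49 RPKM, and KRT8, at 29.8 ± 0.715 RPKM. EPCAM was at 2.28 ± 0.210 RPKM, CDH1 was below the level at 0.694 and 0.931 RPKM, and KRT19 was not listed.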

How the data were processed

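RNA of 2 replicate libraries of 1 group was analysed. The authors deposited 1 table of RPKM, per the file headers. The submitters' processing notes name HISAT2 (an aligner), Trim Galore (a read trimmer) and featureCounts (a read counter), and as builds GRCh38.p13 and hg38. Versions, annotation, strand setting and gene filters: not given in the sources used here. Of 18277 rows, 194 rows of 58 repeated symbols were left out, and symbols that shared both values were taken once, leaving 17912 entries.

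Whole reads were recovered from the ratios of RPKM values, with 100% of ratios whole at a relative tolerance of 2e-13. The common factor of an entry's reads was the one that made the exonic length whole and nearest to its GENCODE 29 length. Recovered reads of the entries made up 98.1% of each library total. Levels are shown with exact 95% Poisson intervals, which cover counting error only. Entries with at least 10 reads were compared between libraries by a two-sided exact binomial test with a scaling factor of 0.995 for replicate 2 and Benjamini-Hochberg adjustment. The recovery of reads and the test between libraries were tried on simulated Poisson reads. Each simulated length was given exactly, so the choice of the common factor was not tested there. Exon overlaps came from GENCODE 29 and promoters from RefSeq. The tools were pandas 2.3.3, scipy 1.17.1 and numpy 2.4.6 under Python 3.11.15, with matplotlib 3.10.9 for the plots.

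All members, the 3 highest genes of each list, listed genes below 1 RPKM, overlapping genes and set partners are named. CDK1, KPNB1 and MYL9 are also given with their tests as called genes among those. The members and lists were chosen with earlier results of these data known. Protein sequences were not analysed here. Alternatives covered the level, the scaling, the threshold, the minimum of reads, the length, each replicate and the motif window.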

Additional observations from a re-analysis of the deposited data

How the results depend on the processing

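The median level of the 10 genes, 34.0 RPKM, was 44.2 RPKM without PRC1 and NUSAP1 (the members sharing over 10% of their bases) and 42.4 RPKM over members with at least 1 RPKM, where the median of all such entries was 8.04 RPKM. On other scales it was 159 TPM (all entries 16.5 TPM) and 182 CPM (all entries 18.5 CPM), a value that rests on the larger TACC3 read number and is 155 CPM with the smaller. Members past the level in both libraries numbered 9 at 0.5 and 1 RPKM and 8 at 5 RPKM. No member was called between the libraries under any alternative tried, while calls over all entries ranged from 19, with a fold of 1.5 required as well, to 204, among entries of at least 1 RPKM. Leaving out either replicate kept all 20 member levels within 1 SD, which with 2 replicates is so by construction. Lengths from GENCODE 29 moved 3 of 10 levels by more than 1 SD, namely DLGAP5 to 67.2 RPKM, NUSAP1 to 0.225 RPKM and TACC3 to 1.26 times its value, or 0.628 times with the smaller of its possible read numbers. With the longest coding transcript as length, TACC3 moved to 68.1 or 34.0 RPKM. Counting motifs before the start only left TTTGAA in 6 of 8 windows. No paired analysis was possible because there is 1 group. The depth limits NUSAP1, with 8 and 9 reads.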
